A study of Mus musculus with 4 samples.

Results

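The radial spoke genes examined here are 10 genes that were taken by name: Rsph1, Rsph3b, Rsph4a, Rsph9, Rsph10b, Nme5, Ropn1l, Lrrc23, Dydc1 and Dydc2. Probes were matched by current symbol, by accession or by an older name, so that Tsga2 in the files is Rsph1, Rshl3 is Rsph4a, 1700027N10Rik is Rsph9 and 4930526H21Rik is Rsph10b. Of the 10 genes, 9 had a probe on the array and 8 were measured, among 18614 measured genes in all, where a probe counts as measured if each array showed it well above background for 1 or both genotypes. They had 12 probes, 10 of them measured, of 41174. No probe carried the name or accession of Rsph3b. The name Rshl2a in the files belongs to its near copy Rsph3a in RefSeq, so those probes are described apart.

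RNA came from mouse embryos of the early headfold stage (about E7.75) on a mixed Sv129/CD-1 background. The heterozygous pool (Noto GFP/+) carried 1 GFP allele of Noto, which encodes a homeobox factor made in the node, and the homozygous pool (Noto GFP/GFP) carried GFP on both alleles. No embryos without a GFP allele were included here. Each pool held 120 to 150 node-containing distal pieces, whose size the sample names and the protocol give differently. Both pools were hybridised together on 1 Agilent 2-colour array and again on a second array with the dyes exchanged, giving 4 samples from 1 pool per genotype. The study looked for effectors of FOXJ1, the master regulator of motile cilia. With no biological replicate no significance test was possible, and the SD over the 2 arrays measures technical spread only.

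A radial spoke is a T-shaped complex that stands on each doublet microtubule of a motile cilium and points inward to the central pair. Its stalk binds the doublet, its head faces the central pair, and it passes signals to the dynein arms that set the waveform of the beat. Most motile cilia of the mouse node are described as lacking a central pair, and loss of spoke head proteins in airway cilia causes primary ciliary dyskinesia.

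Of the set, 1 gene, Dydc2, was lower in the homozygous pool by the size rule used here, which takes a gene as lower or higher where both arrays agreed in sign and each was past 1.5-fold (a log2 ratio of 0.58). None of the 8 measured members was higher (0 of 8). By this rule 2.35% of all measured genes were lower, 0.0591% were higher and 2.41% were either. The 8 members were all dimmer than the median measured gene, and among such genes 4.06% were lower, against 0.634% of the brighter ones, while 0.0967% and 0.0215% were higher. The rule rests on agreement of the arrays, whose ratios correlated at a Pearson r of 0.5 over all measured genes. Among the brighter genes the correlation was only 0.13. Under median centring, which leaves out the brightness-dependent dye correction, the arrays correlated at -0.053 over all measured genes. A value for the dimmer genes alone was not worked out. The ratios of the members ran from -1.20 to 0.02 with a median of -0.32 ± 0.01 (SD of the medians on the 2 arrays), beside a median of -0.02 for all measured genes. Both arrays read below 0 for 5 members, above 0 on both for 0 and on opposite sides for 3. The corresponding shares of all measured genes were 34.0% below 0 and 25.7% above 0 on both arrays, and among genes dimmer than the median, as the members were, 42.9% and 26.8%. Fewer node cells in a piece and less RNA per cell cannot be told apart in pooled tissue.

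The sequences around the annotated starts of the members are shown because of the pair Dydc2 and Dydc1. Dydc2 had the largest difference, while its neighbour Dydc1 differed little on a dim probe whose direction depends on the processing. In RefSeq (build GRCm38.p6, chromosome 14) these genes lie head to head, with annotated bounds that overlap by 158 bases. Dydc1 runs on the plus strand from 41072911 and Dydc2 on the minus strand from 41073037, so their starts are 126 bases apart. Dydc2 has a second annotated start, at 41069208. RefSeq promoter windows of 300 bases (250 before and 50 after the start) were at hand for 6 of the 10 members, with 7 windows in all. Those of the measured members are printed 5′ to 3′ on the strand of the gene, at chr14:41072988-41073287 (Dydc2), chr14:41072661-41072960 (Dydc1), chr6:124779678-124779977 (Lrrc23), chr15:31453640-31453939 (Ropn1l) and chr17:46144151-46144450 (Rsph9). Capitals mark matches to the motifs named after the sequences.
Dydc2: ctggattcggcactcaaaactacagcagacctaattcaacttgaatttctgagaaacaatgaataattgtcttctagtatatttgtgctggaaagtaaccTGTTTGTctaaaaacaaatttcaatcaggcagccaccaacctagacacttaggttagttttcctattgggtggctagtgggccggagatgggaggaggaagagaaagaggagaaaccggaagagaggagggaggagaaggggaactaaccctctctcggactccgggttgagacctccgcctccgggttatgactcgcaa
Dydc1: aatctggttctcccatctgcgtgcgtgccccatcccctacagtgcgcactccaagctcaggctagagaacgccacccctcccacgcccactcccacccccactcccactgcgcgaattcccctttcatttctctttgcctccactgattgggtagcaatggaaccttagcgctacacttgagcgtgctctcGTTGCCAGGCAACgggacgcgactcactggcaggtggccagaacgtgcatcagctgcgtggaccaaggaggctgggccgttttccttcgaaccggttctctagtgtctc
Lrrc23: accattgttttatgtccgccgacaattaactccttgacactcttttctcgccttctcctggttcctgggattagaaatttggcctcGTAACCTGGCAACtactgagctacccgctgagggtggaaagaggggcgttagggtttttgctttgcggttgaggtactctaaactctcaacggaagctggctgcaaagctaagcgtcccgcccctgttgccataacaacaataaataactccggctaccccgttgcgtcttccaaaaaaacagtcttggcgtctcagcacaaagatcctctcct
Ropn1l: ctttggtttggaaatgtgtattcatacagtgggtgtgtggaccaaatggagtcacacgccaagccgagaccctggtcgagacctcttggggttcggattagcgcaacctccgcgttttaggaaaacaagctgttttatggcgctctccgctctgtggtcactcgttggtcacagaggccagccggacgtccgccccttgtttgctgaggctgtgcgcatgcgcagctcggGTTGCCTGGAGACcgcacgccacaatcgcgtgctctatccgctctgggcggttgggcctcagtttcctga
Rsph9: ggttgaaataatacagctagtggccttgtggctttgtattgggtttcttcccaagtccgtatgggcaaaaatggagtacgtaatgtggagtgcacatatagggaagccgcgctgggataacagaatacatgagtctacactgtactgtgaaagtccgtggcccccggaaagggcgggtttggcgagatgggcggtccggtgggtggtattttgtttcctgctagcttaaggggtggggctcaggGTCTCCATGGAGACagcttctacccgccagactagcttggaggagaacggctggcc

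Both kinds of motif named here were searched on both strands. The X-box, which RFX factors bind, was written as GTNNCC and GGNNAC separated by 0 to 3 bases, a form chosen after the sequences were seen. It matched in 4 of the 6 members with a window, namely Lrrc23, Dydc1, Ropn1l and Rsph9, while 3.86% of all 32851 promoter windows held a match. In Dydc1 the match was GTTGCCAGGCAAC, which begins 59 bases before the start of Dydc1 and lies 173 bases inside the transcribed side of the first Dydc2 start. In Lrrc23 it was GTAACCTGGCAAC, 164 bases before the start. In Ropn1l it was GTTGCCTGGAGAC, 20 bases before it, and in Rsph9 it was GTCTCCATGGAGAC, which begins 6 bases before the start and runs across it. Forkhead core sequences, written as TGTTTAC or TGTTTGT, occurred in 9.95% of all windows and in 1 member, Dydc2, as TGTTTGT at 150 bases before the start. The second Dydc2 window and that of Rsph3b held no match to either motif. These matches describe letters in a window and no binding was measured.

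Dydc2 encodes a small protein with a DPY30 domain, the dimerisation fold also found in spoke stalk proteins. Its log2 level was 12.25 and 11.73 in the heterozygous pool on arrays 1 and 2, and 11.02 and 10.56 in the homozygous pool. Both homozygous levels lay below both heterozygous ones. The log2 ratio of homozygote over heterozygote was -1.23 on array 1 and -1.17 on array 2, with a mean of -1.20 ± 0.04 (SD, n = 2 arrays), so the homozygous pool held 43.5% of the heterozygous level (2.30-fold lower). Only 0.419% of all measured genes had a lower mean ratio, and it ranked 79 from the lowest of 18614. The members were chosen with earlier results of these data known, so this rank is a description only. With median centring in place of the brightness-dependent dye correction, Dydc2 read -0.79 on array 1 and -1.24 on array 2 (mean -1.01 ± 0.32). Raw intensities gave the same order on both arrays but unequal sizes. On array 2 the mean foreground intensity was 6111 in the heterozygote (Cy5) and 1492 in the homozygote (Cy3), and on array 1 it was 2632 (Cy3) and 2285 (Cy5), before balancing. The median gene spot read 721.5 (Cy5) and 399.6 (Cy3) on array 2, against 305.2 (Cy3) and 437.8 (Cy5) on the first. The single probe lies at chromosome 14, 39957861 to 39957920 on the minus strand of build mm8. No second Dydc2 probe was at hand to check it.

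**Figure D1:**
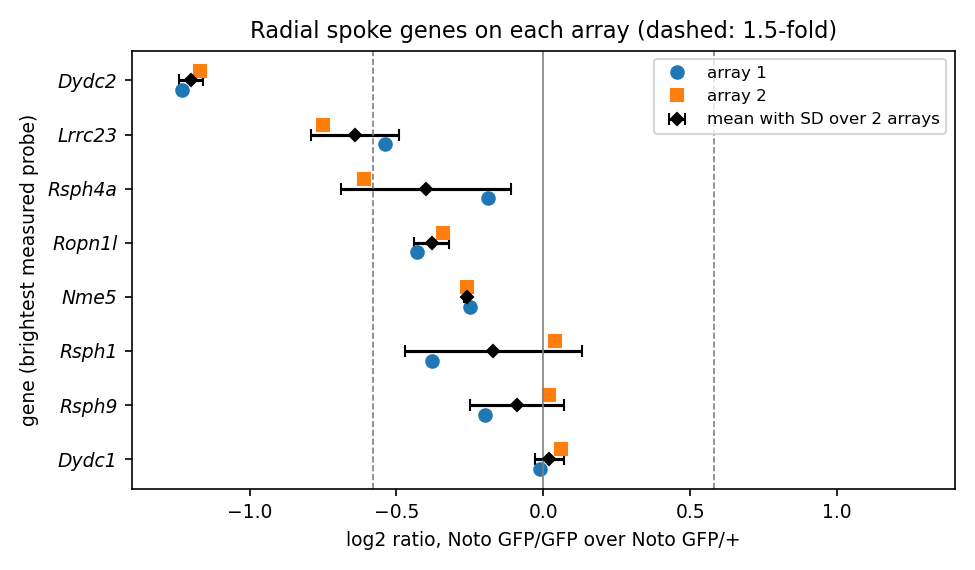
Log2 ratio of homozygote over heterozygote (x axis) for the 8 measured radial spoke genes (y axis), with array 1 as circles, array 2 as squares and the mean with its SD over the 2 arrays as diamonds with bars; dashed lines mark 1.5-fold. Dydc2, at -1.23 and -1.17, is the only gene of the 8 with both arrays past the dashed line, and Dydc1 sits near 0.

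Dydc1, the DPY30-domain neighbour of Dydc2, was dim. Its log2 level was 7.32 and 7.45 in the heterozygous pool and 7.31 and 7.51 in the homozygous pool, so the genotypes overlapped. Its ratio was 0.02 ± 0.05 (n = 2 arrays) at chromosome 14, 40000719 to 40000778 (mm8). The probe was well above background in all 4 samples, but its raw intensities ran only from 160.4 to 278.1. The software's processed ratio of this probe read 0.25 and median centring gave -0.14, so its direction depends on the processing. The nearest measured genes on the Dydc2 side of the pair were Prxl2a (0.29 ± 0.20) and Tspan14 (-0.01 ± 0.29). On the Dydc1 side they were the surfactant protein gene Sftpd (0.19 ± 0.13) and 1700049E17Rik1 (-0.30 ± 0.34). No neighbour passed the size rule, and of these genes Dydc2 alone did.

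Lrrc23, which encodes a leucine-rich repeat protein of the head of the third spoke, came next. Its log2 level was 11.74 and 11.45 in the heterozygous pool and 11.20 and 10.70 in the homozygous pool, again without overlap. The ratio was -0.54 on array 1, just short of the 1.5-fold line, and -0.75 on array 2, with a mean of -0.64 ± 0.15 (n = 2 arrays), or 64.0% of the heterozygous level. Lrrc23 passed the rule with the software's processed ratios (-0.61 and -0.75) and with the authors' value table (-0.61 and -0.74), so its call depends on the processing. Changing the background correction alone left it short of the rule (-0.53 on array 1 without correction and -0.55 with offset 16), and both sets of ratios that called it differ from the reported ones in several steps. With median centring it read -0.11 on array 1 and -0.82 on array 2. Its probe lies at chromosome 6, 124735599 to 124735658 (mm8).

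**Figure D2:**
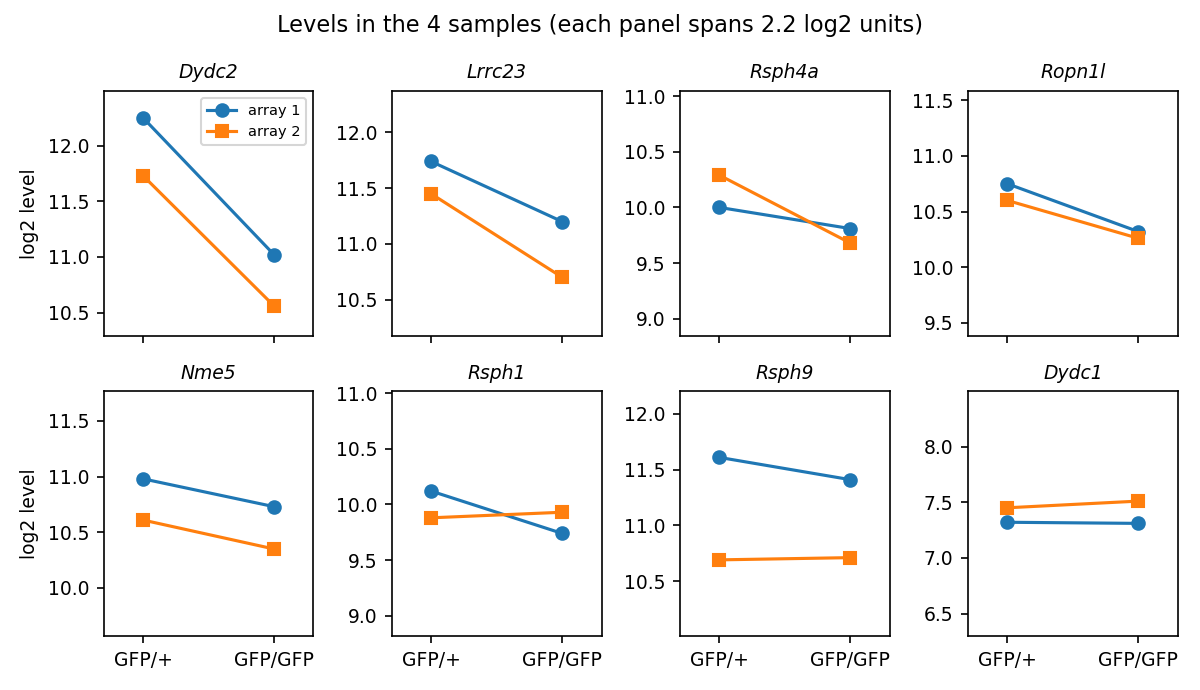
Log2 level after normalization (y axis, 2.2 log2 units per panel) of the 8 measured radial spoke genes in the heterozygous (GFP/+) and homozygous (GFP/GFP) pools (x axis), 1 line per array. For Dydc2 the lines fall from 12.25 and 11.73 to 11.02 and 10.56, while those of Dydc1, read by a dim probe, are flat.

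Ropn1l encodes a ropporin-like protein of the spoke stalk with the docking fold of the regulatory subunit of protein kinase A. Its brighter probe (chromosome 15, 31385814 to 31385873, mm8) had log2 levels of 10.75 and 10.60 in the heterozygous pool and of 10.32 and 10.26 in the homozygous pool, which did not overlap. The ratio was -0.38 ± 0.06 (n = 2 arrays). The second probe, whose position spans 31385936 to 31387906 and so crosses an intron, read -0.20 ± 0.10. Both probes were below 0 on each array and neither reached 1.5-fold. Nme5, a nucleoside diphosphate kinase family protein of the spoke, had log2 levels of 10.98 and 10.61 in the heterozygote and 10.73 and 10.35 in the homozygote. These overlapped between arrays, although the ratio within each array was nearly the same (-0.25 and -0.26, mean -0.26 ± 0.01). Its other probe read -0.29 ± 0.04.

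Of the other spoke head genes, none passed the size rule. Rsph4a had log2 levels of 10 and 10.29 in the heterozygous pool and 9.81 and 9.68 in the homozygous pool, without overlap. The ratio was -0.19 on array 1 and -0.61 on array 2 (mean -0.40 ± 0.29), so only array 2 was past 1.5-fold. Rsph1, whose protein carries MORN repeats, had heterozygous log2 levels of 10.12 and 9.88 and homozygous log2 levels of 9.74 and 9.93, which overlapped. Its ratios of -0.38 and 0.04 had opposite signs (mean -0.17 ± 0.30). Rsph9 had heterozygous log2 levels of 11.61 and 10.69 and homozygous log2 levels of 11.41 and 10.71, and its ratios of -0.20 and 0.02 also had opposite signs (mean -0.09 ± 0.16). The means of Rsph1 and Rsph9 were smaller than their spread over the arrays, so no difference was detectable for either. Both probes of Rsph10b, another MORN-repeat head gene, were not measured. They were well above background in 1 and 2 of the 4 samples, with intensities from 118.2 to 205.7, so no level is given. Counted over levels, both homozygous values lay below both heterozygous ones in 4 of the 8 measured members (Dydc2, Lrrc23, Rsph4a and Ropn1l), beside 16.6% of all measured genes. For this count the share among genes dimmer than the median, as the members were, was not worked out.

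**Figure D3:**
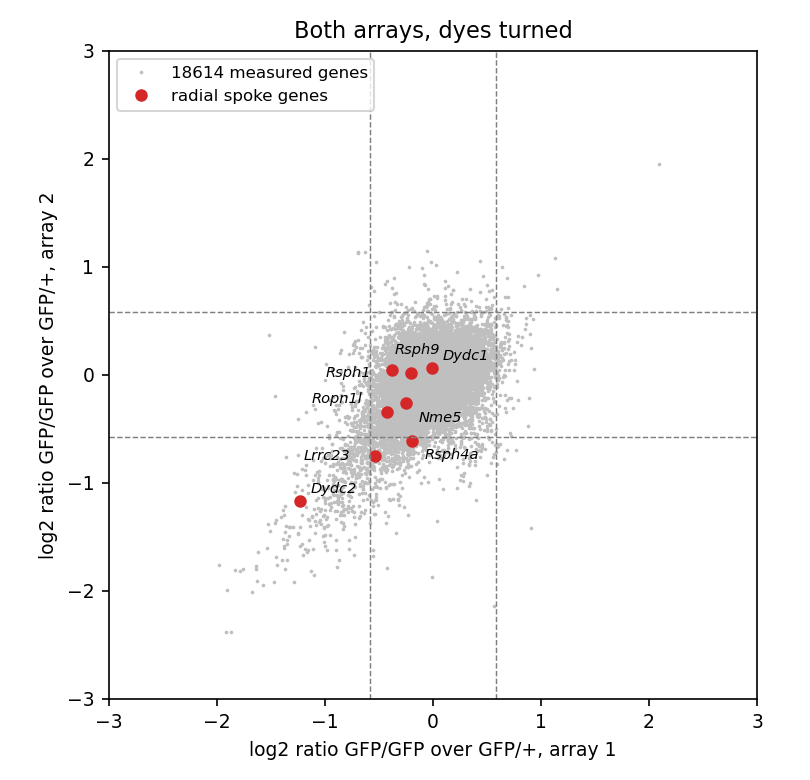
Log2 ratio of homozygote over heterozygote on array 1 (x axis) and array 2 (y axis), dyes turned, for 18614 measured genes in grey and the 8 radial spoke genes in red; dashed lines mark 1.5-fold. Dydc2 lies in the lower left corner region at -1.23 and -1.17, Lrrc23 beside the 1.5-fold line on array 1, and the others nearer the centre.

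The 3 probes of Rsph3a, the near copy of the unmeasured Rsph3b and an anchor of protein kinase A in the spoke stalk, read -0.02 ± 0.01, -0.02 ± 0.03 and 0.19 ± 0.06. Whether these probes also bind Rsph3b RNA was not examined. Of 12 further spoke genes listed for comparison, Rsph3a among them, 7 were measured, 0 were lower and 0 higher, and their median was -0.10 ± 0.08. The farthest from 0 were the testis spoke head gene Rsph6a (-0.40 ± 0.23, well above background in 3 of the 4 samples), Cyb5d1 (0.21 ± 0.17) and Dnajb13, which encodes a spoke neck chaperone (-0.18 ± 0.21). Ropn1, the sperm relative of Ropn1l, had a probe but was not measured.

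Structures that touch the spokes gave ratios in a like range. The central pair genes had a median of -0.18 ± 0.09, with 0 of 10 measured called. Hydin, which builds a central pair projection, read -0.43 ± 0.13, Spef2 -0.39 ± 0.08 and Cfap69 -0.31 ± 0.21. The genes of the axonemal ruler, which sets where spokes attach, and of the nexin link had a median of -0.20 ± 0.02, with 0 of 12 measured called. The farthest were Iqca (-0.60 ± 0.13, at -0.50 on array 1), Drc3 (-0.49 ± 0.11) and Drc1 (-0.37 ± 0.13). Among axonemal dynein genes the median was -0.27 ± 0.12 and 1 of 11 measured was lower, the light chain gene Dynlrb2 (-0.95 ± 0.04). Dnah9 read -0.41 ± 0.21 and Dnah6 -0.36 ± 0.08. Without Dydc2 the spoke members had a median of -0.26 ± 0.01, and no test of a difference between the lists was made.

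**Figure D4:**
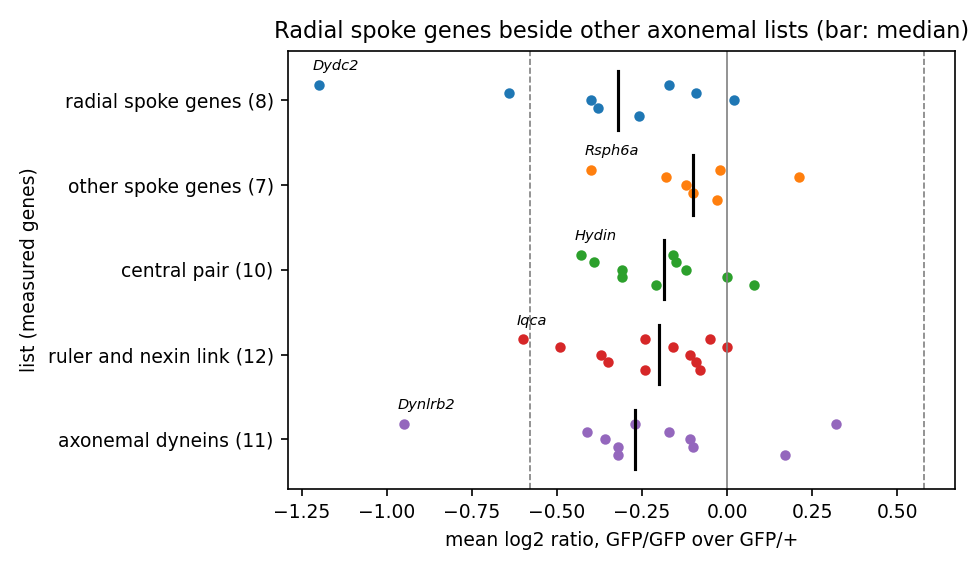
Mean log2 ratio of homozygote over heterozygote (x axis) of each measured gene in 5 axonemal lists (y axis, number measured in brackets), with a bar at the list median and dashed lines at 1.5-fold; the gene with the lowest ratio in each list is named. Dydc2 (-1.20) and Dynlrb2 (-0.95) stand apart from the rest of their lists, whose medians run from -0.32 to -0.10.

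Among regulators, Foxj1 read -0.52 ± 0.09 (-0.59 and -0.46), while Rfx2 (0.10 ± 0.07) and the brightest probe of Rfx3 (0.02 ± 0.01) were near 0. Ratios nearest to the pair of Dydc2 over the 2 arrays, by Euclidean distance among 14733 other genes with a real symbol, were those of Mmrn2 (distance 0.03), Dusp16 (0.07), Cd59a (0.11), Guca1b (0.17) and Pop4 (0.17), with means from -1.22 to -1.09. Second measured probes read 0.18 for Dusp16, -0.14 for Cd59a and -0.29 for Pop4, so none of these 3 genes showed that size on another probe.

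All 7 markers of the node and notochord list (T, Foxa2, Shh, Chrd, Nog, Gsc and Tppp3) and all 3 crown cell markers were measured. Being measured does not by itself show that a cell type was present, since 6 of 7 male germ cell markers were measured too. The summed log2 level of the node and notochord list was 16.59 to 16.75 in the heterozygote and 16.76 to 16.83 in the homozygote, with 1 of 7 lower (Tppp3). This sum rests mostly on the bright markers T (0.33 ± 0.02) and Foxa2 (0.10 ± 0.29). By gene, the median log2 ratio of the list was -0.40 ± 0.07, no nearer to 0 than the -0.32 of the spoke members, and 4 of 7 read below 0 on both arrays. These were Tppp3 (-0.82 ± 0.16), the organiser gene Gsc (-0.66 ± 0.20), the signal gene Shh (-0.44 ± 0.07) and the BMP antagonist gene Nog (-0.40 ± 0.07), while Chrd read 0.08 ± 0.03. The crown list summed to 15.46 to 15.94 and 15.52 to 15.92, with a median ratio of -0.03 ± 0.05. The 8 measured spoke genes summed to 13.70 to 14.09 and 13.19 to 13.55. The 8 red blood cell markers, all measured, summed to 13.67 to 14.09 in the heterozygote and to 12.74 to 13.10 in the homozygote. Their median ratio was -0.32 ± 0.07. Of these, 3 of 8 were lower, all globin genes: Hbb-bt (-1.36 ± 0.07), Hba-a1 (-1.05 ± 0.18) and Hba-a2 (-0.86 ± 0.08). The other red blood cell markers were not called. Hbb-y read -0.44 ± 0.12, Hbb-bh1 -0.20 ± 0.03, Alas2 -0.09 ± 0.01, Klf1 -0.07 ± 0.12 and Gata1 0.21 ± 0.11. Of 6 decidua and trophoblast markers 3 were measured (summing to 10.81 to 11.36 and 11.24 to 11.92, median ratio 0.36 ± 0.09) and 1, Prl8a2, was higher, while Tpbpa and Prl3c1 were not well above background. Of 5 multiciliated cell markers 2 were measured, Ccno (-0.25 ± 0.02) and Deup1 (0.30 ± 0.33). The part of these marker differences, the node and notochord ones included, in the spoke gene ratios was not tested. Noto was not analysed here, which leaves the genotype labels without a check by the targeted gene.

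**Figure D5:**
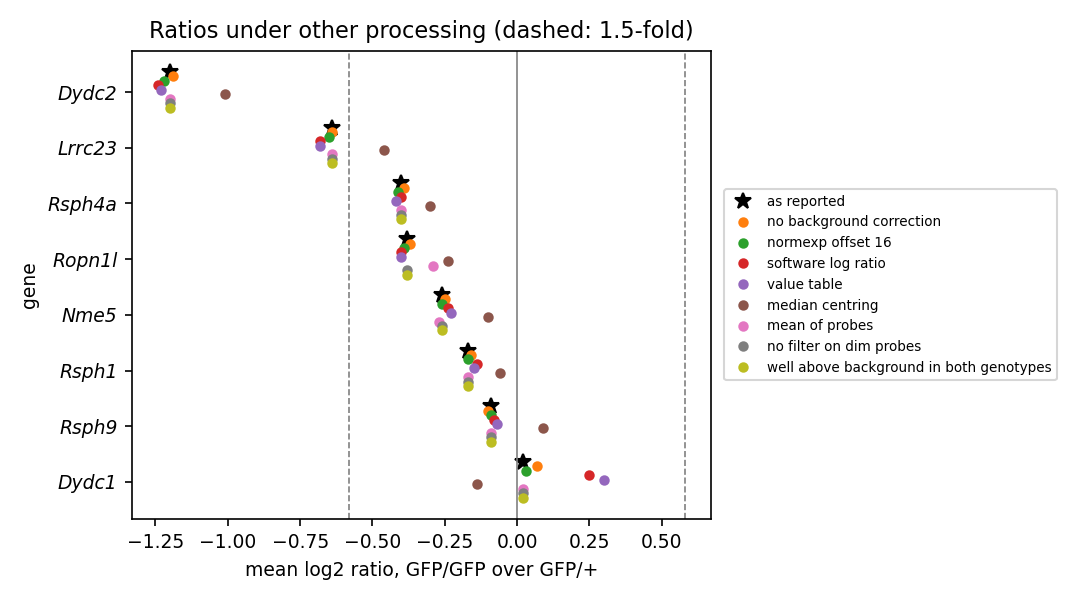
Mean log2 ratio of homozygote over heterozygote (x axis) of the 8 measured radial spoke genes (y axis) as reported (star) and under 8 other ways of processing (circles); dashed lines mark 1.5-fold. Dydc2 stays between -1.24 and -1.01, Lrrc23 between -0.68 and -0.46, and Rsph9 and Dydc1 fall on both sides of 0.

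Dydc2 passed the size rule under all 8 other ways of processing, with means from -1.24 to -1.01. Lrrc23 passed it under 2 of 8 and stayed below 0 under all 8, as did Rsph4a (-0.42 to -0.30), Ropn1l (-0.40 to -0.24), Nme5 (-0.27 to -0.10) and Rsph1 (-0.17 to -0.06). Each measured member with 1 probe was well above background in all 4 samples. Its ratio was thus fixed under the mean of probes, no filter on dim probes and probes above background in both genotypes. Dydc2 and Lrrc23 are among these members. Rsph9 turned to 0.09 and Dydc1 to -0.14 with median centring in place of the brightness-dependent dye correction. Centring moved the median of all measured genes to 0.12 (0.39 on array 1 and -0.16 on array 2). Relative to that median Dydc2 read -1.13, Lrrc23 -0.58, Rsph4a -0.42, Ropn1l -0.36, Nme5 -0.22, Rsph1 -0.18, Rsph9 -0.03 and Dydc1 -0.26.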

How the data were processed

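Per the file headers, both arrays were scanned and extracted by the authors in Agilent Feature Extraction 9.5.3.1, and the deposited files hold foreground and background intensities per spot, processed intensities, a log10 ratio of Cy5 over Cy3, and flags for spots above background or outlying (other units). Probe positions are on build mm8 per the file headers. The files of the samples on an array held the same bytes and were read once. The authors' deposited value table holds processed intensities floored at 15, each column proportional to the dye its label names (1.07 or 1.28 times); its scaling is unstated.

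Each array held 43379 gene spots. Between 64.0% and 81.5% per sample were well above background, and 0 were saturated. Spike-in slopes of 0.809 and 0.705, per the file headers, show compressed ratios. The arrays' number limits precision.

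With limma 3.58.1 in R 4.3.3, intensities were background-corrected (normexp, offset 50) and loess-normalized by array (controls given weight 0, outlier spots (179 and 165) left out), and array 2 was turned. Levels come from Aquantile scaling. A gene takes its brightest measured probe. Names came from accessions and symbols through RefSeq (GRCm38.p6, 33118 of 41174 probes matched). The code was tested on simulated data. Members and lists were chosen with earlier results of these data known. Named genes are all members, Foxj1, Rfx2 and Rfx3, called members of the other axonemal lists and their 3 members farthest from 0, the 5 genes nearest to Dydc2 and its neighbours. The remaining fixed marker lists (visceral endoderm, neural, streak and somite, cardiac, male germ cell) had medians of 0.02, -0.14, 0.01, -0.28 and 0.03. Summaries used Python 3.11.15, numpy 2.4.6 and pandas 2.3.3.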

Additional observations from a re-analysis of the deposited data

How the results depend on the processing

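No paired analysis was possible because the result comes from no test; each ratio already sets both genotypes side by side within an array. The limits are 1 pool per genotype, technical arrays, compressed ratios, dim members and, for most members, 1 probe. Under the 8 alternatives, 45 values of the 7 other members moved by less than their SD over arrays and 11 by more. The 45 include settings under which members with 1 probe could not move. The cause of the moves was not tested. With median centring Dydc2 read -1.01 ± 0.32, and the medians of members and of ruler and nexin link genes were -0.19 ± 0.19 and -0.11 ± 0.33. With the software's log ratios 2 members and 714 of all genes were lower, and 101 genes were higher. With the authors' values 2 members and 651 of all genes were lower, and 95 genes were higher. The processing as reported gave 437 genes lower and 11 higher. With offset 16, 22 genes were higher, and at 2-fold 94 were lower and 2 higher. The members' median was -0.28 with the mean of probes and -0.26 with no filter on dim probes, which adds Rsph10b. The ruler and nexin link median was -0.22 with offset 16, -0.25 with the software's ratios, -0.23 with the value table, -0.15 with the mean of probes, -0.16 with no filter and -0.24 with probes above background in both genotypes. The dynein median was -0.11 with no filter. Among genes brighter than the median, a limit chosen after seeing the data, values were -0.02 (1 other spoke gene, Rsph3a), -0.09 (median of 6 ruler and nexin link genes) and -0.53 (midpoint of 2 dynein genes, Dynlrb2 at -0.95 and Dnal4 at -0.11); no spoke member was that bright.

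Single arrays gave Dydc2 ratios from -1.23 to -1.17, from 1 to 3 members lower (3 on array 2: Dydc2, Lrrc23 and Rsph4a), from 5 to 8 members below 0 (8 on array 1), and member medians from -0.32 to -0.30. The 8 below 0 on array 1 include Dydc1 at -0.01. The median of all measured genes was -0.02 on array 1 and -0.03 on array 2. The share of all genes below 0 on 1 array was not worked out. Among 18614 measured genes, 645 were lower on array 1 and 945 on array 2, with 125 and 113 higher. List medians ran from -0.12 to -0.01 (other spoke genes), -0.27 to -0.14 (central pair), -0.25 to -0.22 (ruler and nexin link) and -0.30 to -0.14 (dyneins).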
